A study of Mus musculus with 6 samples.

Results

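Malat1, Neat1, Kcnq1ot1, Meg3, Rian, H19, Gas5 and Miat are long non-coding RNAs, transcripts that are not translated and that either stay in the nucleus or come from imprinted loci, where the parental origin of a chromosome decides which copy is transcribed. They were chosen by name, with their levels in these libraries already known, and all 8 were found among the 24984 genes listed in the count files. Bulk RNA sequencing of inguinal white adipose tissue, which lies under the skin of the groin, compared Mpst knockout mice on a high-fat diet (3 libraries) with wild-type mice on the same diet (3 libraries). MPST is a sulfurtransferase of mitochondria and cytosol. The strain, the age and sex of the animals, the design of the Mpst allele and the cells it acts in are not recorded in the labels, which also do not say that the replicates are separate animals, so p-values measure only the spread between these libraries, which may be technical. Because the choice of the RNAs rests on this contrast, their differences between genotypes are given as a description and not as a test.

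Malat1 and Neat1 are abundant nuclear RNAs made from neighbouring genes. Malat1 gathers in nuclear speckles, where splicing factors are stored, and Neat1 is the scaffold around which paraspeckle proteins assemble. Kcnq1ot1 is transcribed from the paternal chromosome within Kcnq1 and silences neighbouring genes, while H19 is transcribed from the maternal chromosome beside Igf2. Meg3 and Rian are maternal transcripts of the imprinted cluster that also holds Dlk1, and they carry microRNAs and small nucleolar RNAs. Gas5 is a host of small nucleolar RNAs that is turned over by nonsense-mediated decay, and Miat is a nuclear RNA best known from neurons and heart.

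The libraries held 8054560, 22458630 and 21565825 counts in knockout replicates 1, 2 and 3 and 17394489, 17793003 and 21576075 counts in wild-type replicates 1, 2 and 3. Mpst itself had 3, 10 and 9 counts in the knockout libraries, against 1358, 1394 and 1624 in the wild-type libraries. Summed adipocyte markers (10 genes, none at 0 in all libraries) lay between 37856 and 46997 CPM in knockout and between 57505 and 67516 CPM in wild type, where CPM is the count scaled to 1000000 counts per library with effective library sizes. Adipocyte markers were abundant in every library, and their sum was lower in each knockout library than in any wild-type library. The markers were uneven. In edgeR's fit 9 had a log2 fold change (knockout over wild type) below 0 and 1 above 0, from −2.06 to 0.22 with a median of −0.35. Summed macrophage markers (10 genes) lay between 1752 and 1885 CPM in knockout and between 512 and 1039 CPM in wild type. Of these, 9 had a log2 fold change above 0 and 1 below 0, from −0.20 to 2.49 with a median of 1.42. In bulk tissue, a change in the number of cells of a type and a change in RNA per cell cannot be told apart.

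The RNAs lie on 5 mouse chromosomes (GRCm38, the assembly behind mm10, GENCODE release M21). Malat1 (chr19:5795690-5802672, minus strand) and Neat1 (chr19:5824708-5845478, minus strand) are each annotated as 1 continuous exon and lie 22.04 kb apart. Kcnq1ot1 (chr7:143203458-143296549, minus strand) is antisense to Kcnq1, and H19 (chr7:142575529-142578143, minus strand) lies 625 kb away on the same chromosome and 72.6 kb from Igf2. Meg3 (chr12:109541001-109571726) and Rian (chr12:109603940-109661716) are read in the same direction, 32.2 kb apart, with Mirg a further 68.0 kb away. Gas5 (chr1:161034422-161038539) is on the plus strand and Miat (chr5:112213228-112229395) on the minus strand.

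Promoters of 6 of the 8 RNAs were matched in RefSeq's GRCm38.p6 table. The promoters of Malat1 and Kcnq1ot1 are shown because these RNAs had the largest decreases, that of Meg3 because it starts the chromosome 12 cluster, and that of Gas5 because its start base belongs to a class of translation-linked genes. Each holds 250 bases before and 50 bases from the start site, and the capitals were chosen after the sequences were seen. In Malat1 (chr19:5802623-5802922, minus strand) they mark TGACG, the half-site of the cyclic AMP response element, on either strand. In Kcnq1ot1 (chr7:143296498-143296797, minus strand) they mark CCAAT on either strand, in Meg3 (chr12:109540746-109541045, plus strand) the palindrome TGACGTCA, and in Gas5 (chr1:161034916-161035215, plus strand, the downstream of its 2 starts) a C at the start site followed by at least 4 pyrimidines, the terminal oligopyrimidine (TOP) start.
Malat1 promoter: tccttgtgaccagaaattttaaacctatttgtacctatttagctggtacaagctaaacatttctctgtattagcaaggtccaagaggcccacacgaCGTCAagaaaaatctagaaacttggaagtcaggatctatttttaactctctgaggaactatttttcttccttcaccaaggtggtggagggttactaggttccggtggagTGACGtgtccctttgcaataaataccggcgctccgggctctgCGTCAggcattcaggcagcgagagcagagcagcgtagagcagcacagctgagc
Kcnq1ot1 promoter: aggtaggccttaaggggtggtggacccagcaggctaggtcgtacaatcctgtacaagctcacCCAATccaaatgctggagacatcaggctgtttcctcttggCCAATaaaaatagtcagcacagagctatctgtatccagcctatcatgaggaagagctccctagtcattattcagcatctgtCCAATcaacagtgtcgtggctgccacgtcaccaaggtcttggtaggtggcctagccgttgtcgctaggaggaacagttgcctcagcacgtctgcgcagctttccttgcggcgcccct
Meg3 promoter: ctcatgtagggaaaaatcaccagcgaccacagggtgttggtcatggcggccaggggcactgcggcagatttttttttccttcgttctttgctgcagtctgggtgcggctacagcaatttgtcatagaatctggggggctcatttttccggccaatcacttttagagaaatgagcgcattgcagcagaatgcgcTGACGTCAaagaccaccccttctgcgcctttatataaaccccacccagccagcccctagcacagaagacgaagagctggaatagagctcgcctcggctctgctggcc
Gas5 promoter: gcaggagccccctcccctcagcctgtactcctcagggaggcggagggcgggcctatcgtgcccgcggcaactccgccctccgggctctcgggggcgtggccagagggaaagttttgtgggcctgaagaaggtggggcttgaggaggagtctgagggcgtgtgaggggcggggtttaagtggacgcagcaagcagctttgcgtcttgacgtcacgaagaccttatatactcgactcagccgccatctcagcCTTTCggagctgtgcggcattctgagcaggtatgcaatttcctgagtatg
TGACG occurred 3 times in the Malat1 window and in 20.8% of all 32851 promoters of this length, and CCAAT 3 times in the Kcnq1ot1 window and in 37.4% of all. The half-site was also in each of the other 3 windows shown. The full TGACGTCA, which contains the half-site on each strand, occurred once in the Meg3 window and also once in this Gas5 window, against 1.79% of all promoters. The TOP start was found in 2.51% of all promoters, and Miat was the other RNA of the 8 that had it. A match describes letters in the window only.

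H19, Meg3 and Rian contain microRNA genes, and their mature sequences are shown to identify what these hosts carry. The capitals mark the seed, bases 2 to 8. Mir675 lies in H19 (mature arms at chr7:142577112-142577133 and chr7:142577078-142577099), Mir770 in Meg3 (chr12:109563710-109563731 for the 5p arm) and Mir370 in Rian (chr12:109618305-109618326 for the 3p arm).
mmu-miR-675-5p: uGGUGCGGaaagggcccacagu
mmu-miR-675-3p: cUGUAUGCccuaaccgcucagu
mmu-miR-770-5p: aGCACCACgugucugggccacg
mmu-miR-370-3p: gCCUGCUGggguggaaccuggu
These 4 arms share no seed. The loci Mir675, Mir770, Mir341, Mir370 and Mir1188 had 0 counts in all 6 libraries, which were not made to capture RNAs of this size, so nothing can be read about the microRNAs from the levels of their hosts.

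Malat1 was the most reduced of the 8 RNAs. Its level was 196, 312 and 349 CPM in knockout replicates 1, 2 and 3, against 1488, 975.5 and 1778 CPM in wild-type replicates 1, 2 and 3. Every knockout library lay below every wild-type library, and the mean was 286 ± 80.2 CPM in knockout and 1414 ± 406 CPM in wild type (SD, n = 3 each). The log2 fold change from edgeR's fit across all genes was −2.31 (SE 0.28), a level 4.94-fold lower in knockout. Over 16 alternative settings, which include each library left out, the log2 fold change of Malat1 ranged from −2.69 to −2.10.

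Neat1, whose gene lies next to Malat1, did not show a difference of that size. Its level was 1200.1, 1363 and 2064 CPM in the knockout libraries, against 1619, 1555 and 3141 CPM in the wild-type libraries. The groups overlapped, since knockout replicate 3 exceeded wild-type replicates 1 and 2, and wild-type replicate 3 stood apart as the highest library. The log2 fold change was −0.45 (SE 0.31), and −0.04 (SE 0.21) without wild-type replicate 3. Without both libraries rich in muscle RNA (described with H19), it was −0.89 (SE 0.34). Neat1 counts merge its short, polyadenylated and its long isoform, which gene-level counts cannot separate.

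The ratio of Malat1 to Neat1 within a library does not depend on library scaling. It was 0.163, 0.229 and 0.169 in the knockout libraries, against 0.919, 0.627 and 0.566 in the wild-type libraries. All 3 knockout ratios lay below all 3 wild-type ratios, with means of 0.187 ± 0.0363 in knockout and 0.704 ± 0.189 in wild type (SD, n = 3 each). Of 14 tested genes that neighbour the pair on chromosome 19, none was called by edgeR, DESeq2 or limma-voom at an adjusted p under 0.05, while 3 had an unadjusted edgeR p under 0.05, and their median log2 fold change was −0.11. Of all 14065 tested genes, edgeR called 7.41%, DESeq2 14%, and 27.6% had an unadjusted edgeR p under 0.05. The smallest p among them belonged to Pola2, a subunit of DNA polymerase alpha, at 39.7 ± 1.62 CPM in knockout and 49.1 ± 4.06 CPM in wild type (log2 fold change −0.31, edgeR adjusted p = 0.122), and to Sssca1 (−0.60, edgeR adjusted p = 0.129).

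**Figure D1:**
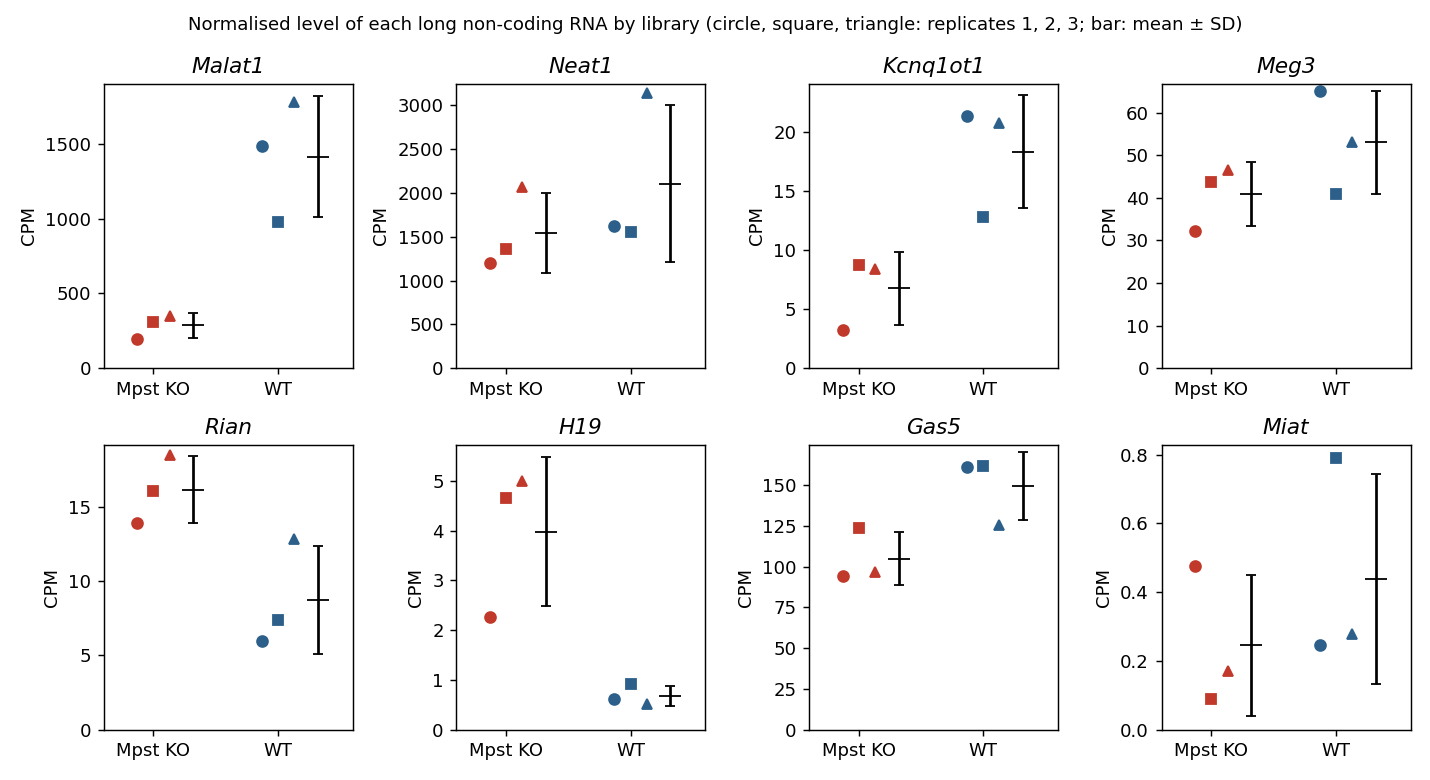
Normalised level (CPM, linear axis from 0) of the 8 long non-coding RNAs in each library, with knockout left of wild type, 1 marker per library, and the mean with its SD beside the markers. Malat1, Kcnq1ot1 and Gas5 lay lower and H19 and Rian higher in every knockout library than in any wild-type library, while Neat1, Meg3 and Miat overlapped.

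Malat1 ends in a triple helix instead of an ordinary poly(A) tail, so other RNAs without such a tail, and the share of reads outside genes, are given beside it. Rn45s, the ribosomal RNA precursor, stood at 2033, 5822 and 2224 CPM in the knockout libraries, against 33858, 18854 and 7379.9 CPM in the wild-type libraries. Rmrp, the RNA of RNase MRP, had 0, 25 and 5 counts in knockout against 98, 191 and 24 in wild type, and Rpph1, the RNA of RNase P, 7, 34 and 23 against 261, 650 and 30. All of these were lower in knockout on average, and none was called (log2 fold change −2.58, −3.57 and −4.03 for Rn45s, Rmrp and Rpph1, edgeR adjusted p = 0.0512, 0.0765 and 0.0988). In CPM, Rn45s and Rmrp were lower in every knockout library than in any wild-type library, as were 15.5% of all tested genes. For Rmrp the gap was narrow (1.10 CPM in knockout replicate 2, 1.11 CPM in wild-type replicate 3). Rpph1 overlapped between the groups.

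The order of the wild-type libraries differed between Malat1 and these RNAs. Wild-type replicate 3 had the highest Malat1 level and the lowest Rn45s, Rmrp and Rpph1 levels of its group. Knockout replicate 2 and wild-type replicate 3 were close in Rn45s (5822 and 7379.9 CPM), Rmrp (1.10 and 1.11 CPM) and Rpph1 (1.496 and 1.39 CPM), and had 312 and 1778 CPM of Malat1. Reads in no annotated feature made up 8.85%, 10.1% and 12.2% of uniquely placed reads in the knockout libraries, against 14.7%, 11.2% and 13.4% in the wild-type libraries. Knockout replicate 3 exceeded wild-type replicate 2 in that share, with 349 CPM of Malat1 against 975.5 CPM. Within the knockout group, both the share and Malat1 were lowest in replicate 1 and highest in replicate 3. Within wild type, both were lowest in replicate 2, while the share was highest in replicate 1 and Malat1 in replicate 3. The pairs of libraries set side by side here were picked after their values were seen. The part of RNA quality or library preparation in the result was not tested.

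**Figure D2:**
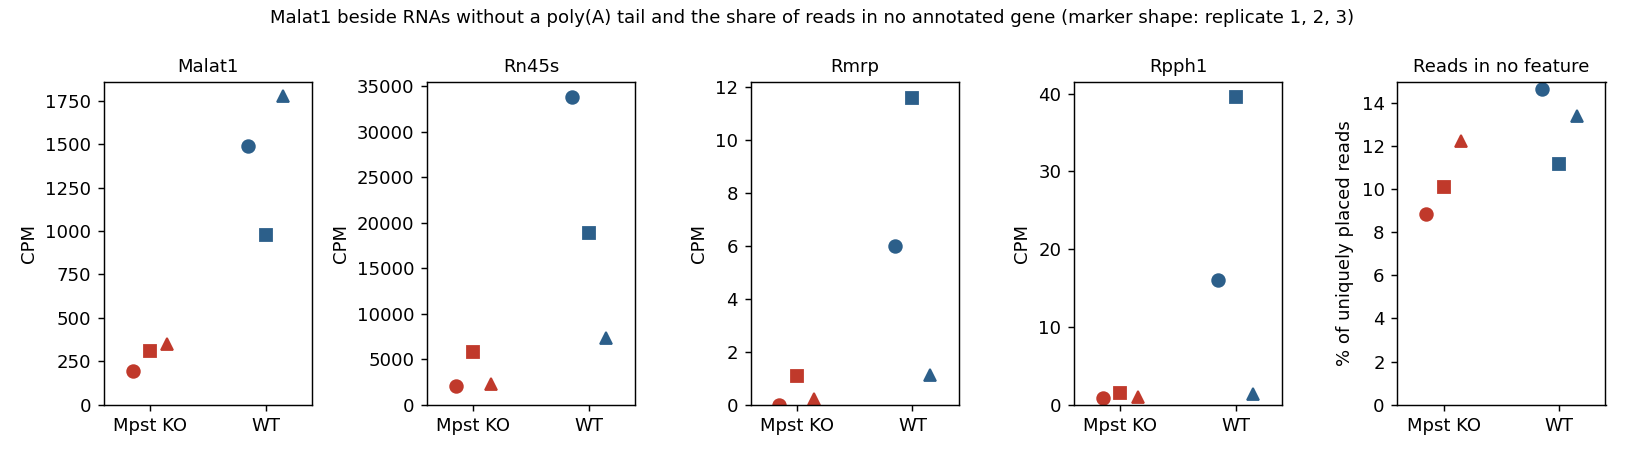
Levels of Malat1, Rn45s, Rmrp and Rpph1 (CPM) and the share of uniquely placed reads in no annotated feature (%), 1 marker per library with the shape giving the replicate, knockout left of wild type, linear axes from 0. Wild-type replicate 3, the triangle, is highest for Malat1 at 1778 CPM and lowest of its group for Rn45s, Rmrp and Rpph1.

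Kcnq1ot1 followed Malat1 in direction at a much lower level. It had 27, 198 and 199 counts in the knockout libraries, against 349, 211 and 448 in the wild-type libraries, which corresponds to 3.22, 8.71 and 8.45 CPM in knockout against 21.4, 12.8 and 20.8 CPM in wild type. The groups did not overlap, and knockout replicate 1, the shallowest library, was lowest. The log2 fold change was −1.38 (SE 0.34), a level 2.61-fold lower in knockout, and −1.10 (SE 0.26) without knockout replicate 1. The kit does not mark strand, so reads from Kcnq1ot1 and from Kcnq1 cannot be told apart where they overlap, although only 121 exonic bases of Kcnq1 lie within Kcnq1ot1 in this annotation and reads from unspliced Kcnq1 transcripts would also fall there.

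Of 14 tested coding genes of the chromosome 7 domain, 1 was called lower and none higher (7.14%, against 7.41% of all tested genes). Slc22a18, a transporter gene in the domain that Kcnq1ot1 silences on the paternal chromosome, was at 8.94, 8.67 and 6.71 CPM in the knockout libraries, against 13.2, 19.999 and 14.8 CPM in the wild-type libraries (edgeR log2 fold change −0.99 with SE 0.21, adjusted p = 0.0311). The other genes named from this domain were chosen after their values were seen. Kcnq1, a potassium channel, stood at 5.86 ± 1.02 CPM in knockout and 5.11 ± 0.856 CPM in wild type, and Cdkn1c, a cell cycle inhibitor, at 24.1 ± 3.498 and 30.3 ± 6.43 CPM. Neither was called (log2 fold change 0.20 and −0.34, edgeR adjusted p = 0.618 and 0.256). The median log2 fold change over the 14 genes was −0.14, against 0.01 over all tested genes.

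H19 went the other way. It had 19, 106 and 118 counts in the knockout libraries, against 10, 15 and 11 in the wild-type libraries. Scaled, these were 2.27, 4.67 and 5.01 CPM in knockout against 0.613, 0.912 and 0.511 CPM in wild type, with no overlap between the groups. The mean was 3.98 ± 1.49 CPM in knockout and 0.678 ± 0.208 CPM in wild type (SD, n = 3 each), and the log2 fold change was 2.59 (SE 0.39), a 6.03-fold higher level. Counts this low carry a wide counting error, and over the settings that kept the gene its log2 fold change ranged from 2.40 to 2.85. Igf2, the growth factor gene that shares enhancers with H19, stood at 12.6 ± 3.05 CPM in knockout and 15.7 ± 3.87 CPM in wild type and was not called (log2 fold change −0.33, edgeR adjusted p = 0.408).

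H19 is also a transcript of skeletal muscle, and muscle markers differed widely between libraries. The summed level of 12 muscle markers was 55.8, 46.4 and 2396 CPM in the knockout libraries, against 49.4, 995 and 156 CPM in the wild-type libraries. H19 was at 4.67 CPM in knockout replicate 2, which had the lowest muscle sum of all, and at 0.912 CPM in wild-type replicate 2, which had the second highest. These libraries were picked by their muscle sums after the values were seen. With knockout replicate 3 and wild-type replicate 2 left out, an alternative added after seeing the data, the log2 fold change was 2.66 (SE 0.51). H19 was not called in that fit (edgeR adjusted p = 0.268). Summed fibroblast and progenitor markers (10 genes) lay between 5766 and 6829 CPM in knockout and between 4481 and 5350 CPM in wild type. The markers did not move together, since 7 had a log2 fold change above 0 and 3 below 0. Their log2 fold changes ran from −2.10 to 1.48, with a median of 0.08. The part of muscle, fibroblast and macrophage content in the H19 level was not tested.

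Meg3 and Rian, from the same chromosome 12 cluster and the same strand, differed in direction. Meg3 was at 32.3, 43.7 and 46.6 CPM in the knockout libraries, against 65.2, 40.8 and 53.1 CPM in the wild-type libraries, and the groups overlapped because wild-type replicate 2 lay below knockout replicates 2 and 3. Its log2 fold change was −0.37 (SE 0.20), −0.19 (SE 0.19) without wild-type replicate 1 and −0.63 (SE 0.20) without the libraries rich in muscle RNA. Rian was at 13.95, 16.1 and 18.5 CPM in the knockout libraries, against 6.01, 7.36 and 12.9 CPM in the wild-type libraries. Every knockout library exceeded every wild-type library, by little in the case of wild-type replicate 3, and the log2 fold change was 0.89 (SE 0.27), or 1.29 (SE 0.19) without that library.

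The third transcript of the cluster, Mirg, a host of many microRNAs, had a fold change below 0, as Meg3 did. It was at 0.835, 1.54 and 1.32 CPM in the knockout libraries, against 3.13, 2.67 and 2.37 CPM in the wild-type libraries, and did not pass the threshold (edgeR log2 fold change −1.08 with SE 0.31, adjusted p = 0.0642). Within libraries, the ratio of Meg3 to Rian was 2.32, 2.72 and 2.52 in knockout, against 10.8, 5.55 and 4.13 in wild type, and that of Meg3 to Mirg was 38.7, 28.3 and 35.4 in knockout, against 20.8, 15.3 and 22.4 in wild type. Neither ratio overlapped between the genotypes, and the 2 ratios moved in opposite directions. Rian contains snoRNA genes, and 3.42% of its exonic bases are shared with other annotated genes, while the snoRNA genes within Rian that the files list (AF357425, DQ267100, DQ267101 and DQ267102) had 0 counts in every library.

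Among 6 tested coding genes in and beside the cluster, Slc25a29, a mitochondrial amino acid carrier, was the one called (16.7%, against 7.41% of all tested genes). It was at 2.15, 2.55 and 2.80 CPM in the knockout libraries, against 6.37, 7.48 and 8.82 CPM in the wild-type libraries (log2 fold change −1.58, SE 0.23, edgeR adjusted p = 0.0149). Dlk1, the paternally transcribed preadipocyte gene of the cluster, was named after its values were seen. It stood at 1.66 ± 0.771 CPM in knockout and 2.36 ± 0.704 CPM in wild type (log2 fold change −0.47, edgeR adjusted p = 0.462). The median over the 6 genes was −0.24.

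**Figure D3:**
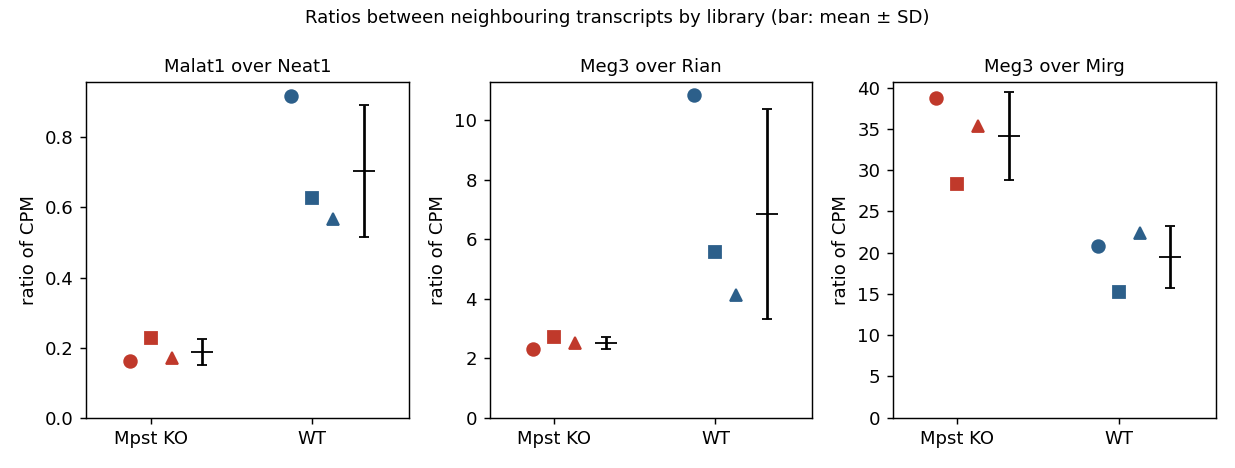
Ratio of CPM between neighbouring transcripts in each library (linear axes from 0), with knockout left of wild type, 1 marker per library, and the mean with its SD. Malat1 over Neat1 and Meg3 over Rian were lower, and Meg3 over Mirg was higher, in every knockout library than in any wild-type library.

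Gas5 was the third most abundant of the RNAs by CPM in wild type. It was at 94.6, 124 and 96.8 CPM in the knockout libraries, against 161, 162 and 126 CPM in the wild-type libraries. The groups did not overlap, but knockout replicate 2 and wild-type replicate 3 nearly met. The mean was 105 ± 16.1 CPM in knockout and 149.8 ± 20.9 CPM in wild type (SD, n = 3 each), and the log2 fold change was −0.51 (SE 0.16). Small nucleolar RNA genes and other annotated genes cover 17.8% of its exonic bases in this annotation, where retained introns count as exons, and Snord47, the one listed in the files, had 6, 30 and 27 counts in knockout against 19, 16 and 8 in wild type.

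Other hosts of small nucleolar RNAs were mostly below 0 in log2 fold change, as were annotated long non-coding genes in general. Of 16 tested hosts beside Gas5, 3 fell and none rose in edgeR's test (18.8%, against 7.41% of all 14065 tested genes in either direction). DESeq2 called 6 lower (37.5%, against 14% of all), and 9 had an unadjusted edgeR p under 0.05 (56.2%, against 27.6%). Of the 16, 15 had a log2 fold change below 0, against 6966 of all 14065 tested genes, and the median was −0.47. Snhg12 fell to 14.5, 16.4 and 14.3 CPM in the knockout libraries, against 26.2, 24.7 and 22.6 CPM in the wild-type libraries (log2 fold change −0.70, SE 0.13, edgeR adjusted p = 0.0243). Snhg20 fell by 0.90 and Snhg18 by 0.67 on the log2 scale (edgeR adjusted p = 0.0348 and 0.0377). The calls of all 3 were lost when knockout replicate 1, 2 or 3 or wild-type replicate 2 was left out, and that of Snhg18 also without wild-type replicate 1. Without knockout replicates 1, 2 and 3 and wild-type replicate 2, only 46, 2, 3 and 1 genes of the whole table stayed called. The exception in sign was Snhg14, the long transcript of the imprinted Snrpn locus, at 1.85 ± 0.495 CPM in knockout and 0.845 ± 0.366 CPM in wild type (log2 fold change 1.08, edgeR adjusted p = 0.126). None of the 10 nonsense-mediated decay factors was called by edgeR, DESeq2 or limma-voom, 1 had an unadjusted edgeR p under 0.05, and their median was −0.14. Of the 18 listed translation factors of the TOP class none was called by any of these tools, 2 had an unadjusted edgeR p under 0.05, and the median was −0.17. The TOP start itself was found in the promoters of 2 of 17 matched hosts, Snhg7 and Snhg8, of 4 of 12 matched translation factors, and in 3.01% of all genes with a promoter.

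Miat was near the limit of detection. It had 4, 2 and 4 counts in the knockout libraries, against 4, 13 and 6 in the wild-type libraries, did not pass the filter on low counts and received no fold change. A difference was not detectable at this depth, where a count of 3, the upper limit that a count of 0 allows, corresponds to 0.134 to 0.372 CPM in knockout and 0.139 to 0.172 CPM in wild type.

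**Figure D4:**
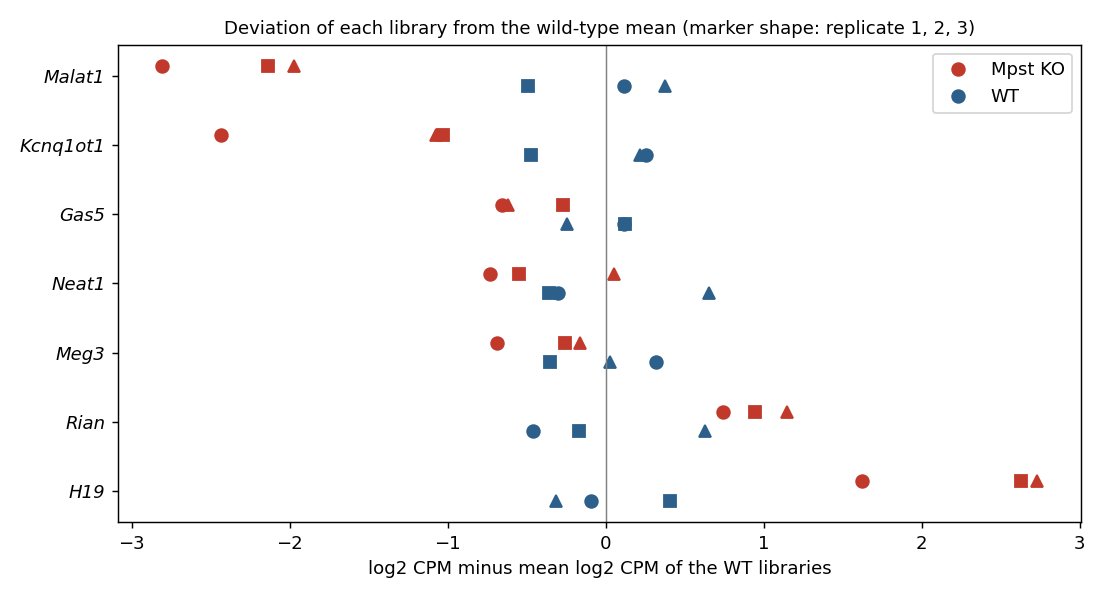
Deviation of each library from the mean of the wild-type libraries, in log2 CPM, for the 7 RNAs that passed the filter on low counts, ordered by fold change, with knockout drawn above wild type in each row and the marker shape giving the replicate. Knockout replicate 1, the circle, lay at −2.81 for Malat1, −2.43 for Kcnq1ot1 and 1.62 for H19.

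Of the 7 RNAs that passed the filter on low counts (Miat did not), H19 was called higher and Malat1 and Kcnq1ot1 lower at an adjusted p under 0.05 in edgeR's fit. Across all tested genes 4.76% were called higher and 2.65% lower. The libraries of the groups did not overlap for 5 of the 7 RNAs (Malat1, Kcnq1ot1, Gas5, Rian and H19), against 33.3% of all tested genes. Since the RNAs were picked with these values known, the counts are given as they stand. The calls of Malat1 and H19 were lost without knockout replicate 2, knockout replicate 3 or wild-type replicate 2, and that of Kcnq1ot1 without any 1 of the 6 libraries. Without knockout replicates 2 and 3 and wild-type replicate 2, only 2, 3 and 1 genes of the whole table stayed called, against 1042 with all libraries. A lost call there is not particular to these RNAs. Without knockout replicate 1, where 46 genes were called, Malat1 and H19 stayed called (edgeR adjusted p = 0.0475 for each). Rian and Gas5 passed the threshold with DESeq2 and without wild-type replicate 3, and with the replicate number as a block. Kcnq1ot1 lost its call under that block, without a low-count filter and at a mean of at least 10 CPM.

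Per kilobase of annotated exon, the order of the RNAs differed between genotypes. In knockout, Neat1 had 74.3, Malat1 40.9, Gas5 27.9, Meg3 2.26, H19 1.62, Rian 0.887, Kcnq1ot1 0.0730 and Miat 0.0264 CPM per kb. In wild type, Malat1 had 202, Neat1 101, Gas5 39.8, Meg3 2.93, Rian 0.479, H19 0.276, Kcnq1ot1 0.197 and Miat 0.0471 CPM per kb. The knockout libraries of Malat1 (28.0 to 50.05 CPM per kb) lay below those of Neat1 (57.8 to 99.4) and overlapped those of Gas5 (25.1 to 32.8). In wild type, Malat1 (139.7 to 255) overlapped Neat1 (74.9 to 151) and lay above Gas5 (33.4 to 43.1). H19 and Rian overlapped in both genotypes, and H19 overlapped Meg3 in knockout and Kcnq1ot1 in wild type. Exon lengths are those of GENCODE M21, where Kcnq1ot1 is a single exon of 93.1 kb, and the lengths the authors counted over were not used here. The M21 lengths join the exons of all annotated transcripts, retained introns included (3.76 kb from 25 transcripts for Gas5). Where the transcripts present are shorter than this, the level per kb is too low. The order between RNAs therefore holds only for these lengths.

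Set among all annotated long non-coding genes, a class chosen after the data were seen, the RNAs took ranks from the highest fold change to the third lowest. Of 496 tested genes of the class, H19 had the highest log2 fold change and Malat1 the third lowest, after Rmrp and 2010016I18Rik, which were not called. Kcnq1ot1 ranked 16 from the lowest and Rian 20 from the highest, while Gas5, Neat1 and Meg3 ranked 157, 188 and 215 from the lowest. Neat1 and Malat1 were the most abundant and made up 27.8% and 12.96% of the summed mean CPM of the class. The class as a whole lay below 0, with 346 of 496 log2 fold changes negative, against 6966 of all 14065 tested genes. Its median was −0.28, and 4 genes were called higher and 24 lower (5.65% in all, against 7.41% of all tested genes).

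The genes whose pattern over the 6 libraries was most like each RNA were found by the root mean square difference of centred log2 CPM. Both genotypes enter this measure, so genes with a similar fold change lie close, and the likeness is not separate from the contrast. The log2 fold changes of the genes nearest to H19, for example, were 2.20 (Tlr13), 2.50 (Cd200r1) and 2.06 (Tlr8). For Malat1 these were Trip11 (0.41), Kcnq1ot1 (0.46) and Slc25a29 (0.48), and for Kcnq1ot1 Trip11 (0.30), Npff (0.35) and Sh3d21 (0.37). For H19 they were the toll-like receptor genes Tlr13 (0.30) and Tlr8 (0.38) and the myeloid receptor gene Cd200r1 (0.34), out of 10957 candidates with at least 5 CPM on average (10956 where the RNA itself was among them). Gas5 lay closest to Atp5g1 (0.05), a subunit of ATP synthase, Smn1 (0.05) and Chchd5 (0.06). Neat1 was near Mapk8ip3 (0.06) and Abcc10 (0.08), Meg3 lay closest to Sfi1 (0.07), Bptf (0.11) and Plekhh3 (0.12), and Rian to Erbin (0.09), Pdpk1 (0.10) and Sirt1 (0.12). Miat, with few counts, lay closest to Sult1e1 (0.38), Zfp13 (0.39) and Gfpt2 (0.43). Between the RNAs themselves, the smallest differences were 0.29 for Meg3 and Gas5 and 0.39 for Neat1 and Meg3, and the largest was 2.37 for Malat1 and H19.

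Genes for proteins of the nuclear bodies that Neat1 and Malat1 occupy are set beside all tested genes, of which edgeR called 7.41%. Of 25 tested paraspeckle proteins, 1 rose and none fell in edgeR's test, DESeq2 called 3 higher and 1 lower (16%, against 14% of all tested genes), 12 had an unadjusted edgeR p under 0.05 (48%, against 27.6%), and the median log2 fold change was 0.05. Rbm7, an RNA-binding adaptor of the nuclear exosome that is also found in paraspeckles, rose to 49.2, 58.6 and 52.1 CPM in the knockout libraries, against 28.7, 25.3 and 36.5 CPM in the wild-type libraries (log2 fold change 0.82, SE 0.15, edgeR adjusted p = 0.0243). The core proteins, named after their values were seen, were not called. Sfpq stood at 149.8 ± 9.93 CPM in knockout and 149 ± 28.5 CPM in wild type (log2 fold change 0.01, edgeR adjusted p = 0.976), Nono at 72.3 ± 10.2 and 53.5 ± 5.96 CPM (0.43, edgeR adjusted p = 0.0935) and Pspc1 at 16.3 ± 0.533 and 11.6 ± 0.536 CPM (0.49, edgeR adjusted p = 0.0636).

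Of 36 tested nuclear speckle and SR protein genes, 1 rose and none fell in edgeR's test (2.78%, against 7.41% of all tested genes). DESeq2 called 1 higher and 1 lower (5.56%, against 14%), 6 had an unadjusted edgeR p under 0.05 (16.7%, against 27.6%), and the median was 0.06. The gene that rose was Qk, the splicing regulator quaking, at 252, 271 and 250.3 CPM in the knockout libraries, against 158, 135 and 156 CPM in the wild-type libraries (log2 fold change 0.79, SE 0.12, edgeR adjusted p = 0.0153). The list of other long non-coding RNAs had 20 tested genes, of which 1 rose and none fell in edgeR's test (5%, against 7.41%). DESeq2 called 1 higher and 4 lower (25%, against 14%), and 8 had an unadjusted edgeR p under 0.05 (40%, against 27.6%). The median of this list was −0.27. Mir22hg, the host of miR-22, was the one that rose, at 56.8 ± 5.85 CPM in knockout and 37.4 ± 3.604 CPM in wild type (log2 fold change 0.60, edgeR adjusted p = 0.0315). Of 5 tested imprinted non-coding RNAs beside the 8, Mirg and Snhg14 among them, none was called by edgeR or limma-voom. DESeq2 called 1 lower (20%, against 14%) and 2 had an unadjusted edgeR p under 0.05 (40%, against 27.6%), with a median of −0.19. The calls of Rbm7, Qk, Mir22hg, Slc25a29 and Slc22a18 were each lost when knockout replicate 1, 2 or 3 or wild-type replicate 2 was left out, and those of Rbm7 and Mir22hg also without wild-type replicate 1. Only 46, 2, 3 and 1 genes of the whole table stayed called without knockout replicates 1, 2 and 3 and wild-type replicate 2.

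**Figure D5:**
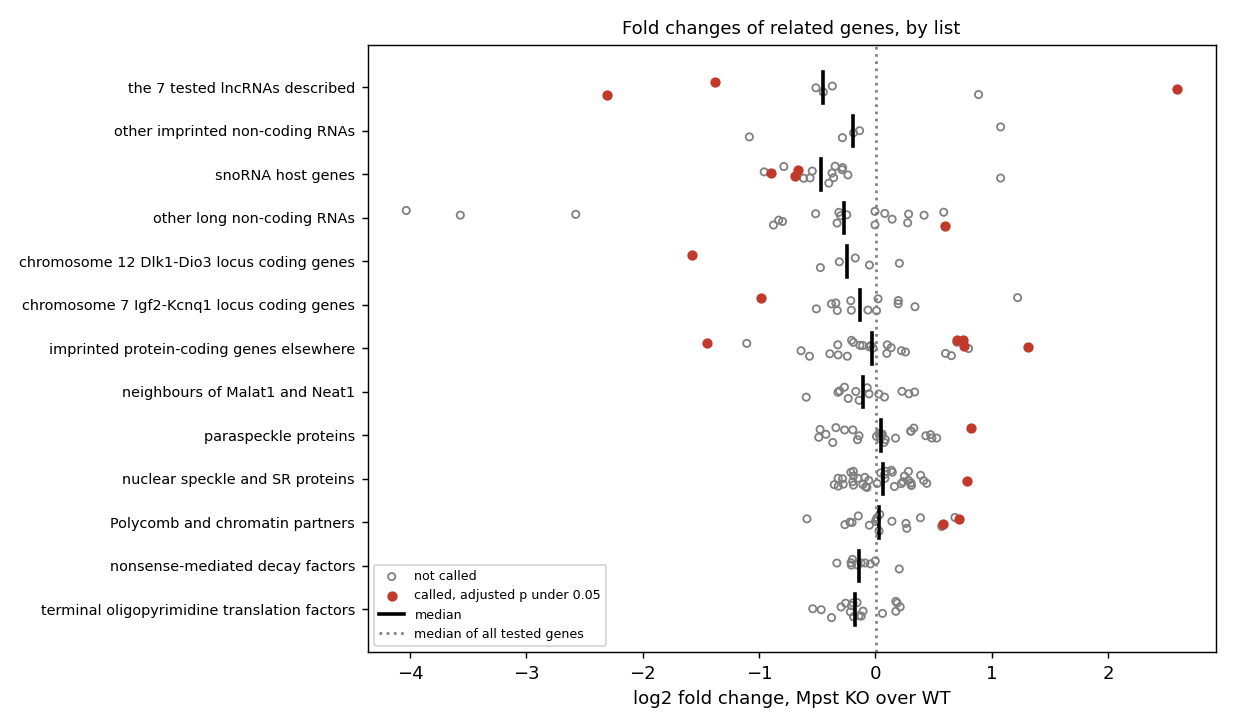
Log2 fold change (Mpst knockout over wild type) of every tested gene in each list, 1 circle per gene, filled where the adjusted p was under 0.05, with the median of each list as a bar and that of all tested genes as a dotted line. The snoRNA hosts had a median of −0.47, while paraspeckle and nuclear speckle proteins had medians of 0.05 and 0.06.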

How the data were processed

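TruSeq RNA v2 libraries, a chemistry without strand information, were read as 75 bp single ends, per the labels' protocols. Total RNA (500 ng) was the input to the kit. Each deposited file lists gene symbols with unnormalised read counts, all whole numbers. The submitters' processing notes name HISAT2 2.1.0, HTSeq 0.13.5, DESeq2 1.26 and mm10. Neither the annotation nor the counter's settings were given in the sources used here. The counter's summary lines entered neither library sizes nor tests. Reads in no feature made up 8.85% to 14.7%, and ambiguous reads 1.63% to 1.83%, of uniquely placed reads. Within each group, every pair of replicates differed beyond sampling noise (median ratio of 3.27 to 23.1 over genes with at least 50 counts).

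Counts were fitted in R 4.3.3 with edgeR 4.0.16. filterByExpr kept 14065 genes, TMM factors scaled the libraries, and knockout was compared with wild type by a robust quasi-likelihood test over all 6 libraries without covariates. Adjusted p-values are Benjamini-Hochberg values over the whole table of tested genes. Standard errors (SE) are the absolute log2 fold change over the root of the F statistic. The fit was tested on simulated data. Alternatives were relative log expression and upper-quartile scaling, scaling without Malat1 and Rn45s, DESeq2 1.42.0, voom weights in limma 3.58.1, all genes kept, at least 10 CPM on average, thinning to the smallest library, the replicate number as a block, and each library left out. Leaving out both muscle-rich libraries was added after seeing the data.

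The 8 RNAs and the gene lists were chosen with earlier results of these data known. Genes named are the 8 RNAs, up to 4 called genes per list (or the 2 with the smallest p), and the 3 most alike per RNA, and any other name is marked as picked with its values in view. Some genes that this rule names are not reported here. Summed CPM of T cell, B cell, neutrophil and mammary and skin epithelium markers (Krt14 and Csn3 of the last at 0 in every library) overlapped between genotypes, and it did not for endothelial markers (1320 to 1497 in knockout, 1155 to 1215 in wild type) and brown and beige adipocyte markers (83.0 to 124 in knockout, 147 to 216 in wild type). Of the 6 brown and beige markers, 4 had a log2 fold change below 0 and 2 above 0, up to 2.13.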

Additional observations from a re-analysis of the deposited data

How the results depend on the processing

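Depth left Miat below the low-count filter, and knockout replicate 1 had the fewest counts. With each library left out in turn, genes called higher and lower in knockout ranged from 0 to 1434 and from 1 to 1167 (669 and 373 with all libraries), the long non-coding RNAs called from 0 to 2 higher and 0 to 2 lower (1 and 2), and genes of the other lists from 0 to 25 higher and 0 to 26 lower (9 and 6). Without knockout replicates 1, 2 and 3 and wild-type replicate 2, the genes called in either direction numbered 46, 2, 3 and 1. The loss of a single gene's call in those fits therefore says little about that gene. DESeq2 called 1074 and 894 genes, 2 and 3 of the RNAs, and 14 and 20 list genes. The replicate block gave 1387 and 1289 genes, 2 RNAs higher (H19 and Rian) and 2 lower (Malat1 and Gas5, with Kcnq1ot1 lost), and 17 and 23 list genes. Without the muscle-rich libraries, 0 and 1 genes, 0 RNAs in either direction and 0 list genes were called, while 1888 genes had an unadjusted p under 0.05. At a mean of at least 10 CPM, H19 and Kcnq1ot1 were lost, leaving 0 RNAs higher and 1 lower, H19 because it was filtered out. Without a low-count filter 1 RNA was called lower, and thinning gave 10 list genes lower. The cause of the other changes was not tested. The replicate numbers were not taken as pairs in the main fit. Deviations from the group means correlated at 0.171, −0.099 and 0.303 for same-numbered libraries, and knockout replicate 2 correlated best with wild-type replicate 1. With 3 libraries per group, the deviations of a group are tied to each other, so these values cannot show whether the samples were paired. No fold change of the 7 RNAs changed sign in any setting that kept it.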

Other observations

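Imprinted coding genes outside the Igf2-Kcnq1 and Dlk1-Dio3 loci had calls in both directions. Of 28 tested, 4 rose and 1 fell in edgeR's test (17.9%, against 7.41% of all tested genes), with a median log2 fold change of −0.03. DESeq2 called 5 higher and 4 lower (32.1%, against 14% of all tested genes), and 10 had an unadjusted edgeR p under 0.05 (35.7%, against 27.6%). Mest, a paternally transcribed gene linked to fat cell enlargement, rose to 513, 407 and 386 CPM in the knockout libraries, against 186, 239.7 and 101 CPM in the wild-type libraries (log2 fold change 1.31, SE 0.28, edgeR adjusted p = 0.0320). Copg2, its neighbour on the opposite strand, rose by 0.70 on the log2 scale (edgeR adjusted p = 0.0326), and reads where the pair overlap cannot be assigned without strand. Dcn, which encodes the matrix proteoglycan decorin, rose to 918 ± 58.1 CPM in knockout, against 543 ± 97.2 CPM in wild type, and Casd1 to 27.8 ± 3.25 CPM in knockout, against 16.5 ± 2.70 CPM in wild type (edgeR adjusted p = 0.0313 and 0.0312). Nnat, a small membrane protein gene, fell to 1351, 1479 and 1434 CPM in the knockout libraries, against 2098, 3470.2 and 6095 CPM in the wild-type libraries (log2 fold change −1.45, SE 0.34, edgeR adjusted p = 0.0379). Without wild-type replicate 3 its log2 fold change was −0.96. All 5 calls were lost when knockout replicate 1, 2 or 3 or wild-type replicate 2 was left out, and those of Mest, Copg2 and Casd1 also without wild-type replicate 1. Few genes of the whole table stayed called without knockout replicates 1, 2 and 3 and wild-type replicate 2 (46, 2, 3 and 1). Summed fibroblast and progenitor markers were 5766 to 6829 CPM in knockout and 4481 to 5350 CPM in wild type, with 7 of the 10 markers above 0 and 3 below 0 in log2 fold change. The part of these cells in the results was not tested.

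Of 20 tested Polycomb and chromatin partners, among them factors that imprinted RNAs recruit, 2 rose and none fell in edgeR's test (10%, against 7.41% of all tested genes), DESeq2 called 4 higher and 1 lower (25%, against 14%), 6 had an unadjusted edgeR p under 0.05 (30%, against 27.6%), and the median log2 fold change was 0.03. Rnf2, a ubiquitin ligase of Polycomb complex PRC1, rose to 41.1, 43.0 and 44.4 CPM in the knockout libraries, against 23.9, 21.9 and 32.3 CPM in the wild-type libraries (log2 fold change 0.72, SE 0.16, edgeR adjusted p = 0.0339). Dnmt3a, a DNA methyltransferase that sets imprints in germ cells, rose by 0.58 on the log2 scale (edgeR adjusted p = 0.0460). Both calls were lost when knockout replicate 1, 2 or 3 or wild-type replicate 2 was left out, and that of Rnf2 also without wild-type replicate 1. As above, few genes of the whole table stayed called without knockout replicates 1, 2 and 3 and wild-type replicate 2 (46, 2, 3 and 1). Thinning to the smallest library ended both calls (edgeR adjusted p = 0.0538 for each), and relative log expression scaling ended that of Dnmt3a (edgeR adjusted p = 0.0521). In the lists without a called gene, Upf3a had the smallest p among decay factors (log2 fold change −0.33, edgeR adjusted p = 0.121). Among translation factors, Eef1d and Eif3f had the smallest p (log2 fold change −0.47 and −0.38, edgeR adjusted p = 0.137 and 0.157).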
